A study of Mus musculus with 6 samples.

Results

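The 10 genes described here, Nqo1, Hmox1, Srxn1, Osgin1, Sqstm1, Ephx1, Ugdh, Akr1b8, Cbr1 and Blvrb, are targets of the transcription factor NRF2 that act outside glutathione and thioredoxin metabolism. They were taken from a list of gene symbols, and all 10 were found among the 27179 Entrez identifiers of the deposited table. Lens RNA of B6/FVB mouse pups was sequenced on postnatal day 1 in 3 libraries of the genotype Gclc KO and 3 of Gclc CON, called KO 1, KO 2, KO 3, CON 1, CON 2 and CON 3 below, and values per library follow that order. The catalytic part of the enzyme that starts glutathione synthesis, glutamate-cysteine ligase, is the product of Gclc. The labels name the genotype, strain, age and tissue of each library, and give no Cre driver, deleted exon, sex, litter or number of pooled animals.

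NRF2, encoded by Nfe2l2, is held low in unstressed cells by KEAP1, which hands it to a CUL3 ubiquitin ligase for degradation. Oxidants and electrophiles modify cysteines of KEAP1, NRF2 accumulates, pairs with small MAF proteins and binds antioxidant response elements, and BACH1 competes for these elements as a repressor. The targets include enzymes that reduce quinones and carbonyls, open epoxides, supply glucuronate for conjugation and degrade heme. The lens lives under light and oxidants for life and depends on such enzymes together with its glutathione.

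The comparison asked how the transcripts of these genes differed between KO and CON lenses. Reads in genes ran from 45842484 to 61219009 in KO libraries and from 20361430 to 43384443 in CON libraries, and crystallins took 40.52% to 47.53% of them in KO and 59.51% to 68.37% in CON. CON 2, the shallowest, carries a lane suffix in its description that the other 5 lack. In the column names of the deposited values all 6 carry a lane suffix, and that of CON 2 differs from the suffix shared by the other 5. Levels are given as normalised reads, which are reads divided by the size factor of the library. Each log2 difference subtracts the CON mean from the KO mean of the deposited values, a scale on which low genes differ by less than their reads do, and was tested with limma across 11468 genes and called at an adjusted p under 0.05. The labels do not say that libraries came from separate animals, so a p-value here covers the spread among 6 libraries, which may be technical. The targeted gene, Gclc, had 17.9, 72.1 and 58.1 normalised reads in KO lenses, against 178.4, 283 and 172.6 in CON lenses. It was lower in KO (log2 difference -1.01, SE 0.28, limma adjusted p = 0.0387), a call lost when KO 1, KO 2, KO 3 or CON 2 was left out (highest adjusted p 0.13). The lens markers Mip and Lgsn were read in all 6 libraries. All 10 listed lens fibre genes were lower in KO (6 when libraries were scaled by total reads), while 10 of 12 macrophage markers were higher (6 with that scaling).

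The 10 genes did not move one way. Sqstm1, Ephx1, Nqo1 and Ugdh were higher in KO lenses, Akr1b8 and Hmox1 were lower, and Cbr1, Srxn1 and Blvrb were not called. Osgin1 had too few reads to be tested. The 4 higher and 2 lower genes stand beside 6.91% of all tested genes called higher and 4.39% called lower. The 9 tested members had a median log2 difference of 0.89, against 0.03 over all genes tested. Members were chosen with earlier results of these data known, so no contrast with all genes here is an independent test. For 6 of the 9 tested members every KO library lay above every CON library and for 1 every KO library lay below. Of all tested genes, 16.9% lay so above and 14.1% so below, 31.0% in all. Osgin1, not tested, also had each KO library above each CON library. Calls over all genes were 61.1% higher, a share that was 47.3% with equal library medians and 97.5% when libraries were scaled by total reads. Each of the 9 tested members passed the filter on low values in either group taken alone, with means at least 2.56 log2 units above the lowest value of the table in KO and 1.88 in CON.

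**Figure D1:**
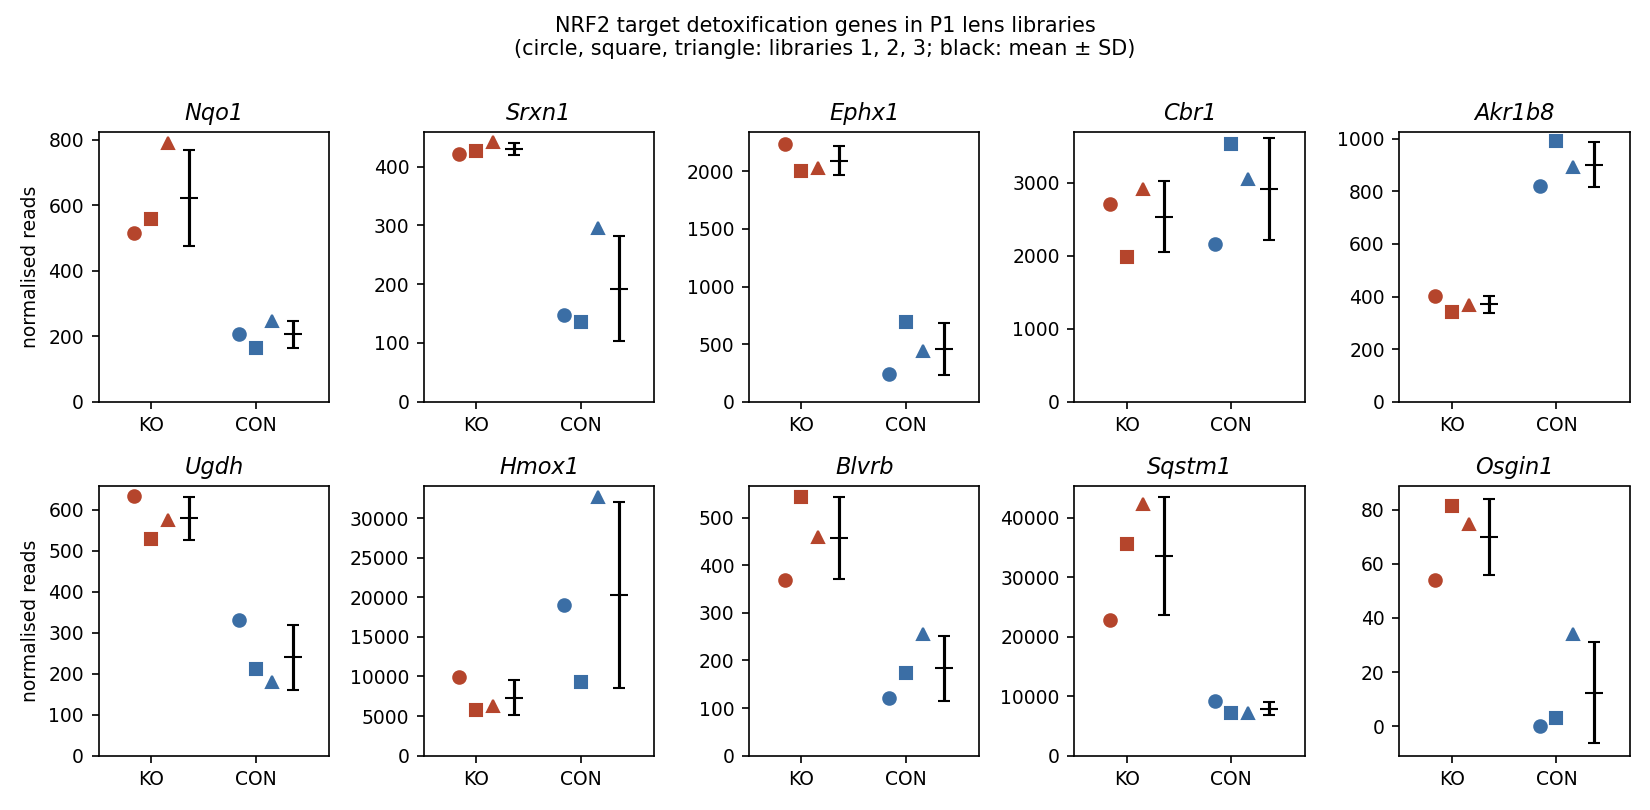
Normalised reads of each gene in the 3 KO and the 3 CON libraries, with the mean and SD in black beside the points and a linear axis for each gene. KO and CON points do not overlap except for Hmox1 and Cbr1.

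Nqo1 encodes NAD(P)H quinone dehydrogenase 1, which reduces quinones to hydroquinones and is a standard readout of NRF2 activity. It had 516.6, 559.1 and 790.7 normalised reads in KO lenses, against 206.9, 163.6 and 246.3 in CON lenses. The lowest KO library lay above the highest CON library. The mean was 622 ± 147.5 in KO and 205.6 ± 41.4 in CON (SD, n = 3 each), a ratio of 3.03. The log2 difference was 1.11 (SE 0.25, limma adjusted p = 0.0159). The call was lost without KO 2, KO 3 or CON 2, with an adjusted p of up to 0.103 in limma.

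Srxn1 encodes sulfiredoxin, which restores peroxiredoxins whose catalytic cysteine has been overoxidised. Its values were 422, 426 and 441 normalised reads in KO lenses, against 146.7, 135.3 and 295 in CON lenses. The KO libraries were nearly alike, and the spread lay in CON, where CON 3 stood apart from the other 2. The means were 429.9 ± 10.1 in KO and 192 ± 89.1 in CON (SD, n = 3 each). The log2 difference of 0.81 (SE 0.27, 95% interval 0.23 to 1.39) was not called (limma adjusted p = 0.0740). Without CON 3 it stood at 1.02 and was called (limma adjusted p = 0.0317).

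The stretch upstream of Srxn1 is shown because it carries letters that NRF2 and AP-1 factors are known to bind. These are the 250 bases before the start of the gene (chr2:152105274-152105523 in GRCm38.p6, plus strand), from RefSeq, with every match to a searched motif in capitals.
Srxn1: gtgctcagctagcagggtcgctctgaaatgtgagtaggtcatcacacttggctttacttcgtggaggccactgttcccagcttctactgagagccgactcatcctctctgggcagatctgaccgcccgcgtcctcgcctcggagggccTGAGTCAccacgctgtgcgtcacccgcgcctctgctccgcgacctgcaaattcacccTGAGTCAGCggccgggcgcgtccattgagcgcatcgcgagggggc
The motifs searched on both strands were TGACNNNGC, the core of the antioxidant response element, TGANTCA, the AP-1 element, and TGAGTCAGC, a form of the response element that holds TGANTCA within it. TGAGTCAGC and TGANTCA were picked after the promoters had been read. In Srxn1 the first base of TGAGTCAGC lay at position -45 from the start, a further TGANTCA lay at -102, and a TGACNNNGC on the other strand began at 29, inside the transcript and outside the printed bases. Within 300 bases around the start, 12.4% of 32851 RefSeq promoters held TGACNNNGC, 7.81% held TGANTCA and 0.414% held TGAGTCAGC. Of the 9 members with a promoter in that table, 2 held each motif. A match describes letters and shows no binding.

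Ephx1 encodes microsomal epoxide hydrolase, which opens reactive epoxides to diols. It was read at 2237, 2006 and 2033 normalised reads in KO lenses, against 239.6, 695.5 and 436.6 in CON lenses. The means were 2092 ± 126 in KO and 457 ± 229 in CON (SD, n = 3 each), a ratio of 4.58. Every KO library lay far above every CON library, and the KO libraries were close to each other. The log2 difference was 1.93 (SE 0.28, limma adjusted p = 0.00168), and the call held whichever library was left out (adjusted p up to 0.00899 in limma). Ephx2, which encodes the soluble epoxide hydrolase, had 494, 458 and 589.9 normalised reads in KO lenses, against 829.7, 1070 and 966 in CON lenses. Its log2 difference was -0.72 (SE 0.23) and was not called (limma adjusted p = 0.0615). Within a library, where scaling cancels, Ephx1 over Ephx2 was 4.53, 4.38 and 3.45 in KO and 0.289, 0.65 and 0.452 in CON, so that Ephx1 had more reads than Ephx2 in each KO library and fewer in each CON library.

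Cbr1 encodes an NADPH-dependent carbonyl reductase and followed Sqstm1 and Hmox1 in level per kilobase of exon in both groups. It stood at 2706, 1983 and 2910 normalised reads in KO lenses, against 2159, 3531 and 3047 in CON lenses. The groups overlapped. The log2 difference was -0.18 (95% interval -0.70 to 0.34, limma adjusted p = 0.686), and its sign turned to 0.69 when libraries were scaled by total reads, a setting under which the median of all tested genes stood at 0.86. Cbr3, a close relative and also an NRF2 target, had 43.8, 48.7 and 49.7 normalised reads in KO lenses, against 12.7, 0 and 0 in CON lenses, and was too low to be tested.

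Akr1b8 encodes an aldo-keto reductase that reduces aldehydes from lipid peroxidation. It had 403, 340 and 367 normalised reads in KO lenses, against 819, 991 and 893.8 in CON lenses. The highest KO library lay below the lowest CON library. The means were 370.1 ± 31.6 in KO and 901 ± 86.3 in CON (SD, n = 3 each), a ratio of 0.411. It was lower in KO by a log2 difference of -1.0 (SE 0.22, limma adjusted p = 0.0143), and omitting KO 2 or KO 3 ended the call (highest limma adjusted p 0.0904). Scaled by total reads, the difference was -0.44 (limma voom adjusted p = 0.211).

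Its relative Akr1b10, another NADPH-dependent aldo-keto reductase, was called in the other direction. It had 356.5, 272.9 and 256 normalised reads in KO lenses, against 66.5, 72.4 and 42.8 in CON lenses (log2 difference 1.19, SE 0.25, limma adjusted p = 0.0116). That call was lost without KO 1 or KO 2 (up to 0.0591). Within a library, the ratio of Akr1b8 reads to Akr1b10 reads was 1.13, 1.25 and 1.43 in KO lenses, against 12.3, 13.7 and 20.9 in CON lenses. The reads of the pair were thus near to equal in KO and far apart in CON. Akr1b3, which encodes aldose reductase, the first enzyme of the polyol pathway, had 999, 832 and 658 normalised reads in KO lenses, against 1298, 1303 and 1277 in CON lenses (log2 difference -0.56, limma adjusted p = 0.126). Akr1b7 was read in KO 2 alone, at 8.42 normalised reads. The Akr1b8 transcript shares 3.21% of its runs of 50 bases with transcripts of other genes, mostly Akr1b10. The share was 4.4% for Ugdh, 4.12% for Cbr1 and 1.89% for Ephx1.

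**Figure D2:**
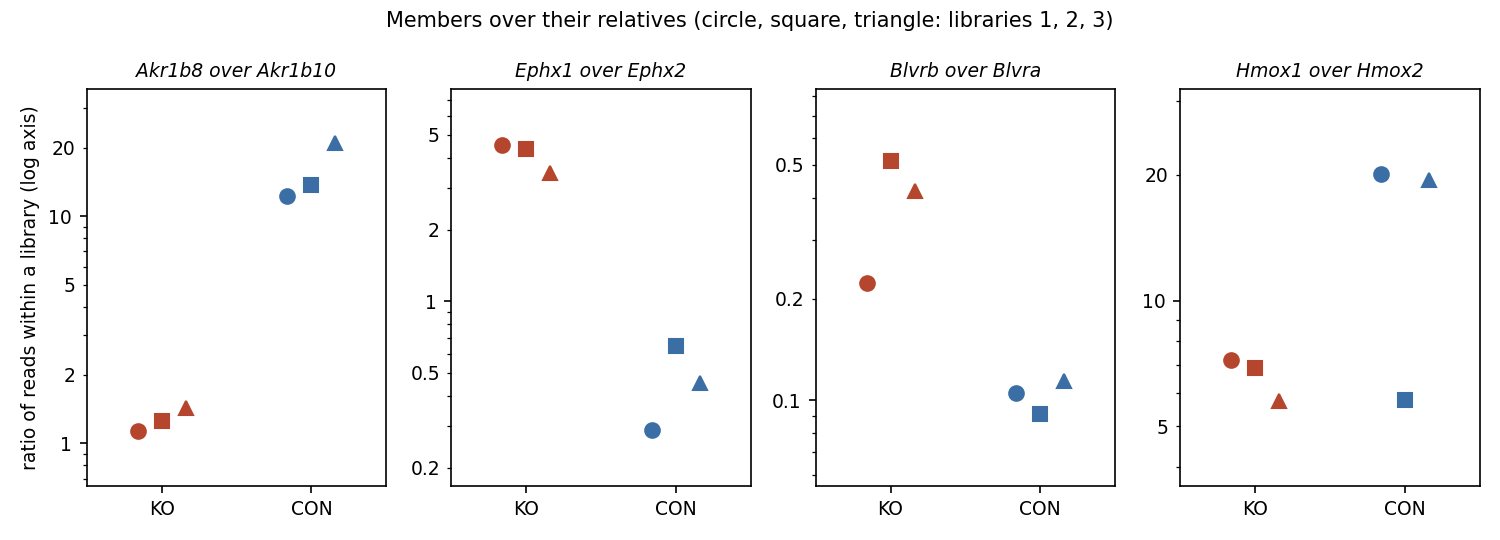
Ratio of the reads of a member to those of a relative within each library, on a log axis, for the 3 KO and the 3 CON libraries. Akr1b8 over Akr1b10 was from 1.13 to 1.43 in KO and from 12.3 to 20.9 in CON, and only Hmox1 over Hmox2 has overlapping groups among the 4 ratios shown.

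Of 6 ratios tested, 5 did not overlap between the groups, among them Sqstm1 over Hmox1 at 2.31, 6.14 and 6.74 in KO and 0.484, 0.777 and 0.222 in CON. Ephx1 over Akr1b8 was 5.55, 5.9 and 5.54 in KO and 0.293, 0.702 and 0.488 in CON. Each of these 5 had a two-sided exact permutation p of 0.1, the smallest that 3 against 3 libraries can give (adjusted p = 0.12 over the 6). Cbr1 over Cbr3, at 61.8, 40.7 and 58.6 in KO and 170.0 in CON 1, was also computed but could not be tested, because Cbr3 had no reads in CON 2 and CON 3. The pair of Sqstm1 and Hmox1 and that of Ephx1 and Akr1b8 were chosen after their values were seen, so their separation and p-values are no test. The other pairs set a member beside a relative, and were chosen with earlier results of these data known. They are no independent test either. Akr1b8 was set against Akr1b10 only, and no ratio to Akr1b3 was computed. Taken singly, 31.0% of all tested genes did not overlap between the groups, and no such share over ratios was computed.

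Ugdh encodes UDP-glucose dehydrogenase, which makes the UDP-glucuronate used in glucuronidation and in hyaluronan and proteoglycan synthesis. It had 632.9, 528 and 574.5 normalised reads in KO lenses, against 330.4, 210.9 and 178.5 in CON lenses. The ranges were apart, with means of 578.6 ± 52.4 in KO and 239.9 ± 80.03 in CON (SD, n = 3 each), a ratio of 2.41. The log2 difference was 0.92 (SE 0.25, limma adjusted p = 0.0370). The call was lost without any 1 of KO 1, KO 2, KO 3, CON 2 or CON 3 (adjusted p up to 0.131 in limma) and with equal library medians (0.0576). Other limma fits that lost it were quantile normalisation (0.0574), no filter (0.0582), voom on recovered reads (0.0691) and the replicate number as a block (0.085). Of 6 tested genes around this enzyme, Pgm2, which encodes a phosphoglucomutase, was higher (log2 difference 1.02, limma adjusted p = 0.0399) and none was lower. There were 0 lower at an unadjusted limma p under 0.05, while voom on total reads called 5 higher. Pgm1, another phosphoglucomutase gene, lay lower in each KO library and was not called (-0.32, limma adjusted p = 0.328). B3gat3 (0.37, limma adjusted p = 0.381) and Gusb (0.58, limma adjusted p = 0.0949) lay higher in each and were not called. The Pgm2 call was lost without any 1 library other than CON 1 (adjusted p up to 0.136). In the mouse annotation an exon of Ugdh shares 158 bases with Gm43552 on the same strand. The part of that stretch in the Ugdh reads was not tested.

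The promoter of Ugdh is printed because it alone, among the called members with a promoter in the table, held TGACNNNGC. The 250 bases before the start (chr5:65435843-65436092 in GRCm38.p6, minus strand) are given 5′ to 3′ on the strand of the gene, with the matches in capitals.
Ugdh: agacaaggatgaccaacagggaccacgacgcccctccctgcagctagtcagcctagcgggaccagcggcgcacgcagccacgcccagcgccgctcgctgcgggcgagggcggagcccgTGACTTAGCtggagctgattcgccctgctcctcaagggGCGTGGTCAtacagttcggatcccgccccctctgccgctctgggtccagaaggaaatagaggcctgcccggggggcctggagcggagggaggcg
TGACTTAGC begins at position -132, and GCGTGGTCA, a match on the other strand, at -94. The 50 bases after this RefSeq start open no transcript of Ugdh in GENCODE M21. The same held for Nqo1, Sqstm1, Akr1b8 and Osgin1, so positions and windows in these genes hold for the RefSeq start alone. The promoters of Nqo1, Sqstm1, Ephx1, Akr1b8, Cbr1 and Blvrb held no match to any of the 3 motifs within 300 bases around the start, which says only that these letters are not in that window.

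Hmox1 encodes heme oxygenase 1, which cleaves heme to biliverdin, iron and carbon monoxide, and is repressed by BACH1. Per kilobase of exon it had 4664 ± 1426 normalised reads in KO lenses, where it came after Sqstm1, and 12940 ± 7459 in CON lenses, where it was the most abundant of the 10 (SD, n = 3 each). Its levels were 9888, 5799 and 6267 normalised reads in KO lenses, against 18973, 9322 and 32613 in CON lenses. KO 1 lay above CON 2, so the groups overlapped, and most of the spread lay in CON. The means were 7318 ± 2238 in KO and 20303 ± 11703 in CON (SD, n = 3 each).

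The Hmox1 log2 difference was -1.31 (SE 0.38, 95% interval -2.14 to -0.49, limma adjusted p = 0.0452). It was -0.89 without CON 3 and -1.78 without CON 2, and the call held only without CON 2, with an adjusted p of up to 0.147 in the other limma fits. Scaled by total reads, it was -0.58 (limma voom adjusted p = 0.253). Summed macrophage markers, whose cells express Hmox1, were 19440, 9846 and 6086 normalised reads in KO lenses, against 2415, 1577 and 2727 in CON lenses. Summed red cell markers were 3631, 3387 and 2269 in KO lenses, against 4414, 6826 and 6673 in CON lenses. Hmox1 was thus lower in KO beside higher macrophage markers, and the part of either cell type in the difference was not tested. In whole lens RNA, fewer cells of a type and less RNA per cell cannot be told apart.

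Blvrb encodes biliverdin reductase B, which reduces biliverdin isomers and flavins. It had 369.7, 543 and 459.8 normalised reads in KO lenses, against 121.4, 173 and 255 in CON lenses. The groups did not overlap, with means of 457.5 ± 86.6 in KO and 183 ± 67.5 in CON (SD, n = 3 each). The log2 difference of 0.89 (SE 0.27, 95% interval 0.31 to 1.47) was not called (limma adjusted p = 0.0514), and without CON 3 it was 1.05 (limma adjusted p = 0.0369). Blvra, which encodes the main biliverdin reductase of adult tissue, had 1656, 1056 and 1097 in KO lenses, against 1161, 1898 and 2243 in CON lenses (log2 difference -0.41, limma adjusted p = 0.369). Blvrb over Blvra within a library was 0.223, 0.514 and 0.419 in KO and 0.105, 0.0912 and 0.114 in CON. Hmox2, the constitutive heme oxygenase gene, differed by -0.30 (SE 0.26, limma adjusted p = 0.515). Of 10 tested genes of heme synthesis, import and breakdown, none was called in either direction, and their differences ran from -0.41 to 0.79. At an unadjusted limma p under 0.05 there was 1, Flvcr1, a heme exporter with the difference of 0.79. Voom on recovered reads called 0, library weights called 1 higher and voom on total reads called 4 higher.

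Sqstm1 encodes p62, a receptor that carries ubiquitinated cargo to autophagosomes and binds KEAP1, so that it is both a target of NRF2 and a protein that frees it. It was read at 22853, 35589 and 42262 normalised reads in KO lenses, against 9184, 7245 and 7255 in CON lenses. The CON libraries were close together, and the lowest KO library lay well above them. The means were 33568 ± 9861 in KO and 7895 ± 1117 in CON (SD, n = 3 each), a ratio of 4.25. The log2 difference of 2.03 (SE 0.25, limma adjusted p = 0.000595) was the largest among the 9 tested members on the deposited scale. The call held without any 1 library (adjusted p up to 0.00657 in limma). Sqstm1 also stood above Ephx1 with equal library medians (1.90 against 1.81). It stood below Ephx1 with voom on recovered reads (2.04 against 2.51) and with log2 of normalised reads plus 1 (2.05 against 2.32).

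None of the other 10 listed autophagy receptors and LC3 family genes was called, and their differences ran from -0.31 to 0.56. At an unadjusted limma p under 0.05 there was 1, Calcoco1, at 0.56. Voom on recovered reads called 0, library weights and the fit without CON 1 called 1 higher each, and voom on total reads called 6 higher. KO 1, the KO library with the largest macrophage sum, was the lowest KO library for Sqstm1, Nqo1, Srxn1, Blvrb and Osgin1, the highest for Ephx1, Ugdh, Hmox1 and Akr1b8, and lay between the others for Cbr1. The part of macrophages in these genes was not tested. In the mouse annotation (GENCODE M21) an exon of Sqstm1 shares 580 bases with Mrnip on the other strand. With matches on either strand counted, 20.4% of the runs of 50 bases in the Sqstm1 transcript are shared, all of them with Mrnip. The strand setting of the counting is not given in the sources used here, so reads of the shared stretch cannot be told apart. Mrnip itself had 267.8, 254 and 268 normalised reads in KO lenses, against 665, 506.7 and 408.6 in CON lenses (limma adjusted p = 0.0960), and so lay lower in each KO library.

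**Figure D3:**
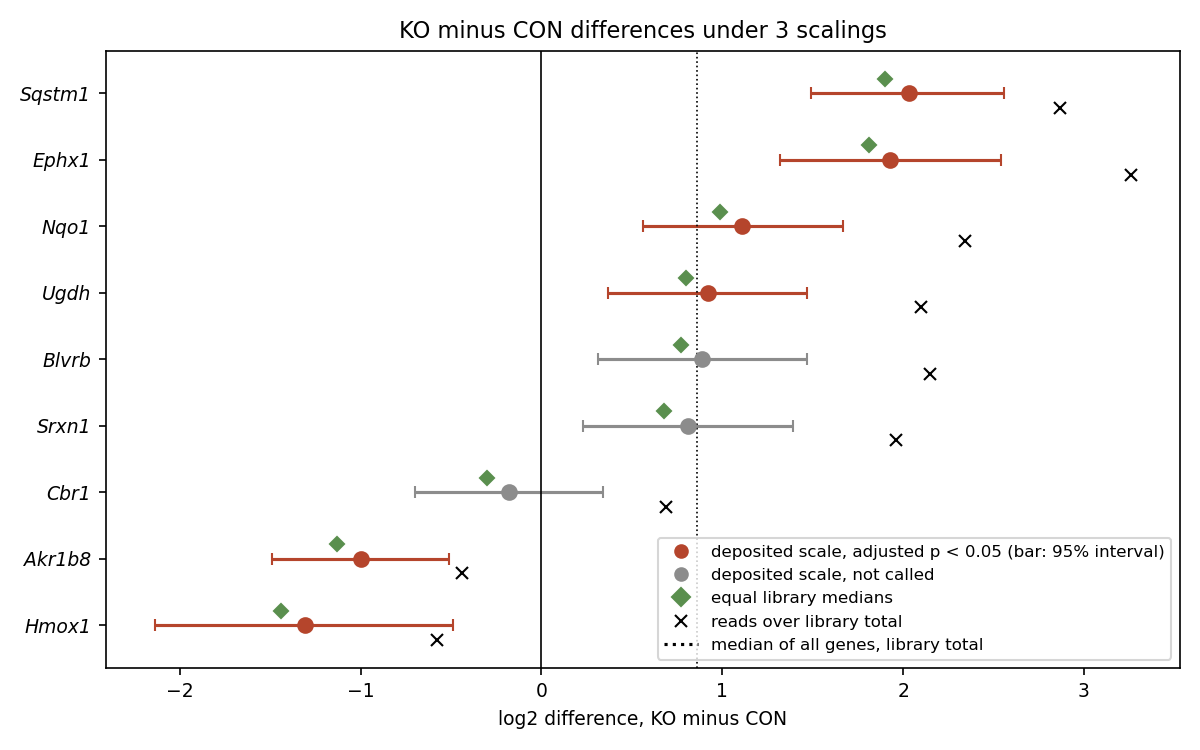
KO minus CON log2 differences of the 9 tested genes on the deposited scale with 95% intervals, beside the differences with equal library medians (diamonds) and with libraries scaled by total reads (crosses, whose dotted line marks the median of all genes). Sqstm1 and Ephx1 lie at 2.03 and 1.93, and Cbr1 changes sign between scalings.

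Osgin1 encodes oxidative stress induced growth inhibitor 1. It had 54.1, 81.2 and 74.5 normalised reads in KO lenses, against 0, 3.15 and 33.9 in CON lenses. Behind these were 94, 135 and 141 reads in KO and 0, 1 and 23 in CON. Every KO library had more than any CON library, but the mean fell short of the filter and no test was made with the other genes. Without the filter its log2 difference was 0.85 (limma adjusted p = 0.0927). Its promoter is shown because it holds the same TGAGTCAGC as that of Srxn1, on the other strand, with its first printed base at position -99 (chr8:119436897-119437146 in GRCm38.p6, plus strand, 250 bases before the start).
Osgin1: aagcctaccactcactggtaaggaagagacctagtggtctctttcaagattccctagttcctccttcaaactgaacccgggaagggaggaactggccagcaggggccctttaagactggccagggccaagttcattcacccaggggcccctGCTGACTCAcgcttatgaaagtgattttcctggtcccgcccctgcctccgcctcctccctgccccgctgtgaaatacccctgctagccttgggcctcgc

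Per kilobase of exon the 10 genes spanned a wide range of levels. In KO the order by normalised reads per kilobase was Sqstm1 (11891 ± 3493), Hmox1 (4664 ± 1426), Cbr1 (2048 ± 394), Ephx1 (1202 ± 72.5), Nqo1 (401 ± 95), Blvrb (324 ± 61.2), Akr1b8 (273 ± 23.2), Ugdh (227 ± 20.5), Srxn1 (153 ± 3.59) and Osgin1 (34.9 ± 7.02; SD, n = 3). In CON the order was Hmox1, Sqstm1 (2797 ± 396), Cbr1 (2354 ± 563), Akr1b8 (664 ± 63.6), Ephx1 (263 ± 131), Nqo1 (132 ± 26.6), Blvrb (130 ± 47.7), Ugdh (94.1 ± 31.4), Srxn1 (68.4 ± 31.7) and Osgin1 (6.16 ± 9.35; SD, n = 3). In KO, Nqo1 and Blvrb differed by less than the larger SD of the pair, as did Blvrb and Akr1b8. In CON the same held for Sqstm1 and Cbr1 and for the neighbours among Ephx1, Nqo1, Blvrb, Ugdh and Srxn1. Akr1b8 had place 7 in KO and place 4 in CON.

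The regulators of NRF2 were called in 2 of 12 cases, beside 11.3% of all tested genes called in either direction. Cul3, the scaffold of the ligase that degrades NRF2, had 1695, 739 and 946 normalised reads in KO lenses, against 3239, 2335 and 3158 in CON lenses. It was lower in KO (log2 difference -1.30, SE 0.28, limma adjusted p = 0.0116), and its call was lost without KO 2 (0.0654). Maff, a small MAF gene, was higher, with 162, 265.1 and 327 in KO against 63.3, 40.9 and 4.42 in CON (log2 difference 1.35, SE 0.31, limma adjusted p = 0.0158). The Maff call was lost without KO 2 or KO 3 (up to 0.0801). It was also lost with voom on recovered reads (limma voom adjusted p = 0.128) and on reads outside crystallins (0.127). With log2 of normalised reads plus 1 it was lost as well (limma adjusted p = 0.0595). Nfe2l2 itself had 1074, 1174 and 1089 in KO lenses, against 816, 761.6 and 516 in CON lenses. Its KO libraries all lay above its CON libraries, and the difference of 0.58 (SE 0.23, 95% interval 0.08 to 1.09) was not called (limma adjusted p = 0.129). Keap1 (0.29, limma adjusted p = 0.633) and Bach1 (0.11, limma adjusted p = 0.867) had overlapping groups. The other small MAF genes did not share the call of Maff. Mafg had 61.05, 181.6 and 288.6 normalised reads in KO lenses, against 864.6, 708.1 and 267 in CON lenses (-1.22, limma adjusted p = 0.0629). Mafk differed by 0.44 (limma adjusted p = 0.499). Bach2, a relative of Bach1, lay lower in each KO library and was not called (-0.64, limma adjusted p = 0.0692).

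NRF2 targets of other branches held calls in both directions. Of 11 tested targets in glutathione and thioredoxin metabolism, Gsta4, a transferase that conjugates lipid aldehydes, was higher (1.11, limma adjusted p = 0.0182), and Gstm1, another glutathione transferase gene (-2.07, limma adjusted p = 0.00146), and Gclc were lower. The Gsta4 call was lost without KO 1, KO 2 or CON 2 (up to 0.0762). Of 6 targets that supply NADPH, Tkt, which encodes transketolase, was lower (-0.67, limma adjusted p = 0.0461), but stood at 0.13 when libraries were scaled by total reads, and its call was lost without any 1 library other than CON 1 (up to 0.172). None was higher, with 0 at an unadjusted limma p under 0.05, and voom on total reads called 2 higher. Of 10 tested genes of other detoxification, transport and iron storage, Ptgr1, which encodes a prostaglandin reductase, was higher beside Akr1b10. On the deposited scale none was called lower, with 2 lower at an unadjusted limma p under 0.05. Equal library medians, quantile normalisation, the filter of 3 units and library weights called 1 lower each, and the fit without CON 1 called 2 lower. Ptgr1 had 598, 431 and 451.9 normalised reads in KO lenses, against 120.3, 56.7 and 238.9 in CON lenses (log2 difference 1.25, limma adjusted p = 0.0213), a call lost without KO 1, KO 2, KO 3 or CON 2 (up to 0.0786). Aox1, which encodes an aldehyde oxidase and was named after its values were seen, had 265 reads over the KO libraries and none over the CON libraries. With a floor of 3 reads over the CON libraries together it was at least 32.4-fold higher in KO, where the floor covers counting error only. In all, 5 of 65 tested genes in the 7 other lists were higher and 4 lower, with a median log2 difference of -0.03. These counts lie near the shares over all tested genes, where 6.91% were higher and 4.39% lower.

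**Figure D4:**
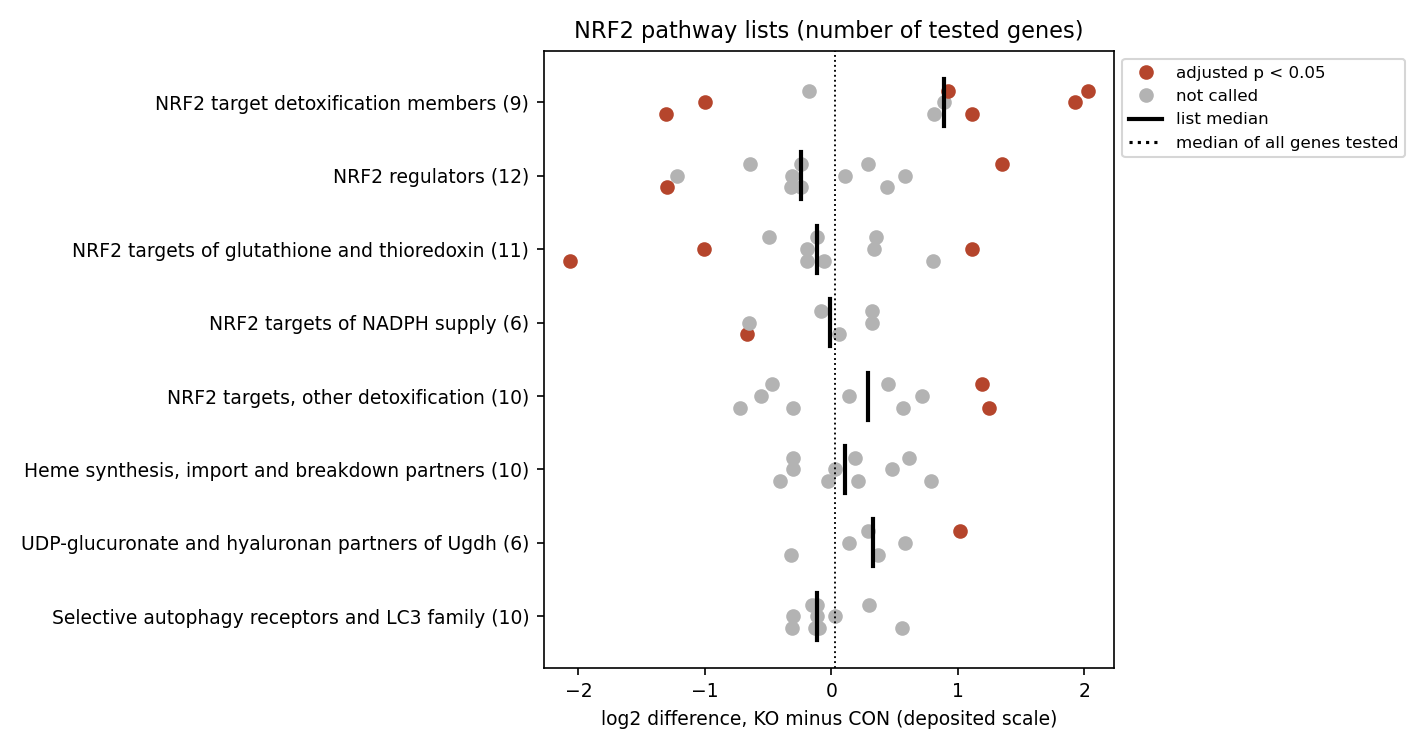
KO minus CON log2 difference of every tested gene in the 8 lists, with called genes in red, the median of each list as a bar and the median of all tested genes as a dotted line. The detoxification genes run from -1.31 to 2.03 with a median of 0.89, and the other lists have medians from -0.24 to 0.33.

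Signals of other cell types moved between the groups beside these genes. Of 12 macrophage markers 10 were higher and none lower on the deposited scale, and 4 were higher with voom on recovered reads, 3 with voom on reads outside crystallins and 6 with voom on total reads. Cd68 stood at 1931, 1165 and 817 normalised reads in KO lenses, against 63.3, 151.1 and 168 in CON lenses. Of 7 tested pigment cell markers Tyrp1 and Rlbp1 were higher, with summed levels of 12485 to 19202 in KO and 8875 to 11341 in CON, and Rpe65 had no reads. Of 4 tested red cell markers Hba-a2 was lower. Of 2 tested mesenchyme markers Pdgfra was lower, with list sums of 420 to 451 in KO and 748 to 1366 in CON. Pdgfra alone made up most of the CON sums, at 952.2, 789.9 and 531.0 normalised reads. Col1a2 lay lower in each KO library and was not called. Col1a1, too low to be tested, lay higher in each, at 43.2, 90.8 and 81.9 against 23.2, 0 and 0 in CON. None of 6 endothelium markers was called (1 lower at an unadjusted limma p under 0.05, 1 lower with equal library medians and 0 by voom), with sums of 937 to 2978 in KO and 1781 to 2031 in CON. Of 6 tested lens epithelium markers Pax6 and Aqp1 were higher and the other 4 lower, with sums of 21826 to 26506 in KO and 38357 to 42702 in CON. Lens fibre sums were 4968551 to 7483143 in KO and 13593653 to 19430744 in CON. The part of these cells in the differences of the 10 genes was not tested.

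The number of detoxification genes called depended on single libraries. It was 2 higher without KO 2, KO 3 or CON 2, 5 higher without CON 3, and 0 lower without KO 2 or KO 3. The description labels of KO 2 and KO 3 share a style of library name that the other 4 lack. With that style as a covariate the difference rests on KO 1 alone against the CON libraries, and that lone library is assumed to vary like the others. In that fit Sqstm1 (1.52) and Ephx1 (2.02) were called higher and none was called lower. The limma adjusted p there was 0.272 for Nqo1 and 0.221 for both Ugdh and Akr1b8.

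**Figure D5:**
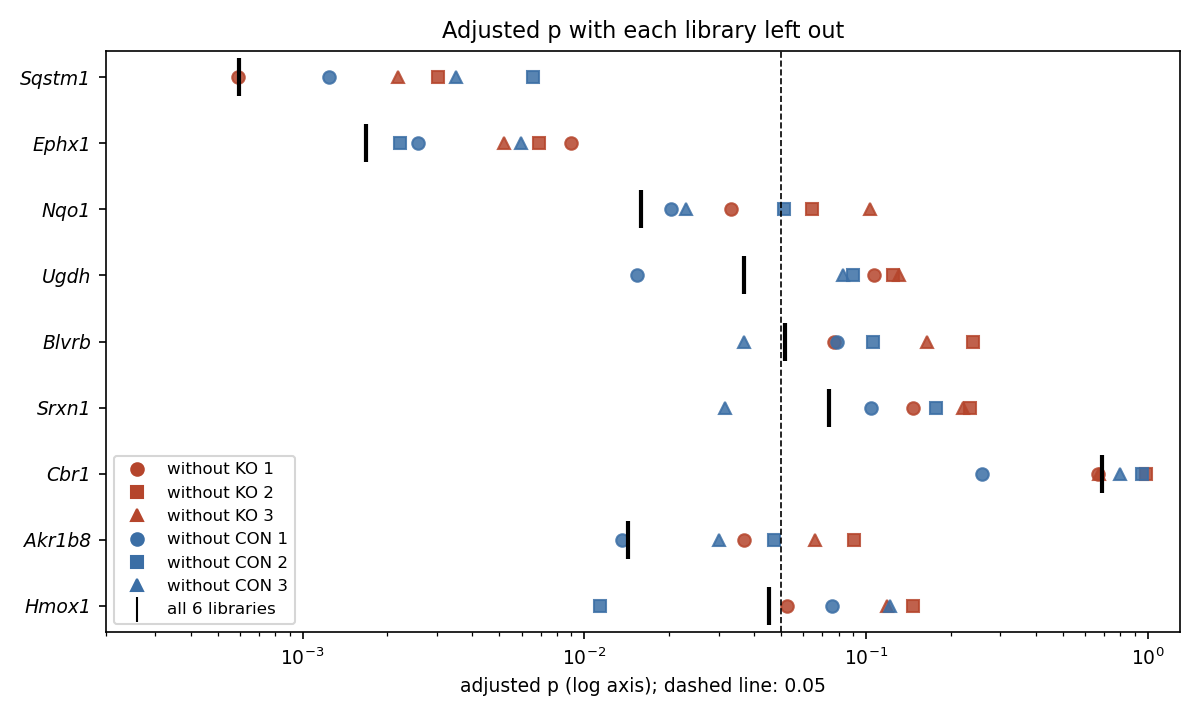
Limma adjusted p of the 9 tested genes with all 6 libraries (black bar) and with each library left out in turn, on a log axis with 0.05 dashed. All points of Sqstm1 and Ephx1 lie left of the line, and Hmox1 has 1 of its 6 left of it.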

How the data were processed

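RNA came from lenses kept in RNAlater and was purified with an RNeasy Micro column and made into libraries with a NEBNext low-input kit, per the labels' protocols. Per the submitters' processing notes, Trimmomatic, HISAT2 2.1.0, featureCounts 1.6.4, DESeq2 (version given as 2.11.0.6) and the build mm9 were used, with no role or order given. The authors deposited log2 values that the name of their table gives as variance-stabilised by DESeq2, with 6.504 for a gene without reads.

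The transformation was inverted per library to reads, which came within 0.1 of whole numbers for 100.0% of values, and median-of-ratios scaling of these reads gave back the size factors. The labels name no molecular identifiers. Entrez identifiers were matched to symbols with RefSeq GRCm38.p6 (25275 matched), used for names and promoters, and exon lengths came from GENCODE M21.

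KO and CON were compared with limma 3.58.1 in R 4.3.3 (eBayes with trend, no covariate) on the deposited values. The 11468 genes tested had means exceeding the lowest value by 1 unit or more, and p-values were Benjamini-Hochberg adjusted over all of them. The fit was also run on simulated reads that held no group difference in crystallin share, and no support for the calls is drawn from that run. Alternatives were other scalings (among them voom on total reads), filters, variance models, voom on recovered reads, covariates and each library left out. Residuals of equally numbered KO and CON libraries correlated at -0.364, -0.128 and -0.14, so numbers were not used as pairs. Members and lists were chosen with earlier results of these data known. Named were all members, up to 3 called genes per list and direction, Gclc, Nfe2l2, Keap1, Bach1 and close relatives of members. Mrnip and Gm43552 were named for their overlaps with Sqstm1 and Ugdh. Marker genes, Flvcr1, Calcoco1, Aox1, Mafg, Mafk, Bach2, Pgm1, B3gat3 and Gusb were named after their values were seen. The result of 1 marker list is not reported here.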

Additional observations from a re-analysis of the deposited data

How the results depend on the processing

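Sqstm1 and Ephx1 kept direction and call in every limma fit run that had more than 1 KO library behind the difference (the name style leaves KO 1 alone), while each of the other called members lost its call in at least 1. The 4 members called higher became 2 with a filter of 3 units, 7 with voom on total reads and 2 with the style of library name as covariate, and ranged from 2 to 5 with 1 library left out. The 2 called lower became 1 with quantile normalisation, no filter, voom with reads outside crystallins, log2 of normalised reads plus 1 and eBayes without trend, and 0 with voom on total reads and with the name style, and ranged from 0 to 2 with 1 library left out. Equal replicate numbers did not pair the libraries. With the replicate number as a block, 3 members were higher and 1 lower, 2 other pathway genes were lower, and 2.69% of all genes (309) were lower. Over all genes 793 were higher (6.91%) and 504 lower (4.39%). The higher became 340 (6.79% of fewer genes) with a filter of 3 units, 421 (3.67%) with voom on recovered reads, 3314 (28.9%) with voom on total reads, 1219 (10.6%) with library weights and 204 (1.78%) with the name style, and ranged from 3.11% to 9.46% with 1 library left out. The lower became 85 (0.741%) with voom on total reads, 292 (2.55%) with reads outside crystallins, 933 (8.14%) with library weights and 39 (0.34%) with the name style, and ranged from 1.53% to 7.48% with 1 library left out. The share of calls that were higher was 61.1%, against 47.1% with voom on recovered reads, 42.4% with a filter of 3 units, 71.3% with no filter and 84.0% with the name style. The median of all genes stood at 0.86 with total reads, 0.23 with reads outside crystallins and -0.09 with equal medians. The 5 other pathway genes called higher became 1 with a filter of 3 units or voom on recovered reads, 32 with total reads, 3 with log2 plus 1 and 0 with the name style, and ranged from 0 to 6 with 1 library left out. The 4 lower became 7 with equal medians, 2 with no filter, reads outside crystallins or log2 plus 1, 1 with total reads and 0 with the name style, and ranged from 1 to 7 with 1 library left out. Signs changed for Cbr1 with total reads (0.69) and reads outside crystallins (0.07), for Bach1 with equal medians (-0.02) and quantile normalisation (-0.10), for Keap1 with the name style (-0.23) and for Tkt with total reads (0.13). With 1 library left out Bach1 ranged from -0.17 (without CON 2) to 0.31. The cause was not tested in these cases, other than fewer genes under the filter and fewer libraries where 1 was left out. CON 2 was the shallowest library, with 52 reads of Nqo1, 43 of Srxn1 and 55 of Blvrb, which limits the precision of these genes there.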
